A study of Mus musculus with 5 samples.

Results

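The 10 genes *Slc7a5*, *Slc3a2*, *Slc7a1*, *Slc38a2*, *Slc38a3*, *Slc38a5*, *Slc6a6*, *Slc7a11*, *Slc1a1* and *Slc1a4* encode amino acid carriers of the blood-brain barrier (BBB) and of the cells attached to it. They were chosen by name, and each corresponded to 1 row among the 37982 Ensembl genes of the deposited files. After rows with a shared symbol had been summed there were 34615 symbols, of which 16286 reached an average of 1 FPKM (fragments per kilobase of exon, scaled by the mapped fragments of the library) over the 5 mice, and all 10 transporters were among them. The samples were microvessel fragments pulled from the brains of 3 wild-type (WT) and 2 heterozygous Ins2-AKITA mice with magnetic beads against PECAM1, with 1 library per sample. All were male C57BL6 mice (C57Bl/6-J in the methods of the study) between 26 and 38 weeks of age, with no age given per mouse, and the WT mice were littermate controls. Samples are taken as separate mice by their numbers, and p-values measure the spread between them. The Ins2-AKITA allele is a germline mutation of the insulin 2 gene that makes the mice hyperglycemic through loss of insulin, so that high glucose and low insulin cannot be told apart in this model. The fragments carry endothelial cells together with pericytes, astrocyte end-feet and other cells.

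Brain endothelium is sealed by tight junctions, so that amino acids reach the brain through carriers of the solute carrier (SLC) families. SLC7A5 (LAT1) exchanges large neutral amino acids such as leucine and phenylalanine and works only as a dimer with the heavy chain SLC3A2 (4F2hc), which also pairs with other SLC7 light chains such as the cystine/glutamate exchanger SLC7A11 (xCT). Cationic amino acids enter through SLC7A1 (CAT1). SLC38A2, SLC38A3 and SLC38A5 move glutamine and other neutral amino acids together with sodium, SLC6A6 takes up taurine, SLC1A1 (EAAT3) takes up glutamate and cysteine, and SLC1A4 (ASCT1) exchanges serine, alanine and other small neutral amino acids. Several of these genes, *Slc7a11* among them, are known targets of ATF4, the transcription factor of the amino acid response, which binds C/EBP-ATF response elements.

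To show this element in its place, the 250 bases before the transcription start of *Slc7a11* and, for comparison, of its partner *Slc3a2* are given from the promoters of RefSeq (GRCm38.p6), 5′ to 3′ on the strand of the gene, here the minus strand for both. Capitals mark matches to TGATGNAA, the core letters of the element, searched on both strands.

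*Slc7a11*, chr3:50443614-50443863: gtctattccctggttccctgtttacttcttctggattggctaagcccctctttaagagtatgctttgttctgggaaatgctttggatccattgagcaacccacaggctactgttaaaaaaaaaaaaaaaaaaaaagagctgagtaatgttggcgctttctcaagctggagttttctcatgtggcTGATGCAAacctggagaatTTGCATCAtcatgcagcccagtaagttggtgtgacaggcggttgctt

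*Slc3a2*, chr19:8713898-8714147: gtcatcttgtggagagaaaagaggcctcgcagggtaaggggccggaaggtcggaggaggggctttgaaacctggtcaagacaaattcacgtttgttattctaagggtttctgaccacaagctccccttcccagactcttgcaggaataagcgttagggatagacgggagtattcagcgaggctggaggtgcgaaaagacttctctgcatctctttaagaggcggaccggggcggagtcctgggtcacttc

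The *Slc7a11* promoter held 2 matches, TGATGCAA from 66 to 59 bases before the start and TTGCATCA, the same letters on the other strand, from 47 to 40 bases before it. Of the 10 genes 7 had a RefSeq promoter, with 8 promoters, and *Slc7a11* was the one gene among them with a match in this window. Of all 32851 mouse promoters listed there 3.45% held at least 1. A match describes the letters of the window and shows neither binding nor use of the site.

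The transporters covered a wide range of levels, with *Slc6a6* as the highest and *Slc38a5* as the lowest gene of the list in each of the 5 mice. In WT mice the mean FPKM followed the order *Slc6a6* (61.7), *Slc7a5* (46.4), *Slc3a2* (39.1), *Slc38a3* (30.7), *Slc1a1* (25.1), *Slc1a4* (12.7), *Slc7a1* (11.4), *Slc38a2* (11.1), *Slc7a11* (10.3) and *Slc38a5* (5.90). FPKM is a level per length and allows genes to be set side by side. Neighbours in this order did not differ beyond the larger of their WT standard deviations, except *Slc3a2* from *Slc38a3* (gap 8.45, larger SD 4.80), *Slc1a1* from *Slc1a4* (12.5, 6.58) and *Slc7a11* from *Slc38a5* (4.41, 4.01). *Slc6a6* was above *Slc7a5*, *Slc3a2* above *Slc38a3* and *Slc7a11* above *Slc38a5* in 5 of 5 mice, whereas *Slc7a5* was above *Slc3a2* in 2 of 5. Among protein-coding genes tested, *Slc6a6* stood between percentile 88.2 and 94.3 depending on the mouse and *Slc38a5* between 12.7 and 39.5. The spread between mice was narrowest for *Slc38a2*, 1.19-fold from the lowest to the highest mouse, and widest for *Slc38a5*, 3.36-fold.

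**Figure D1:**
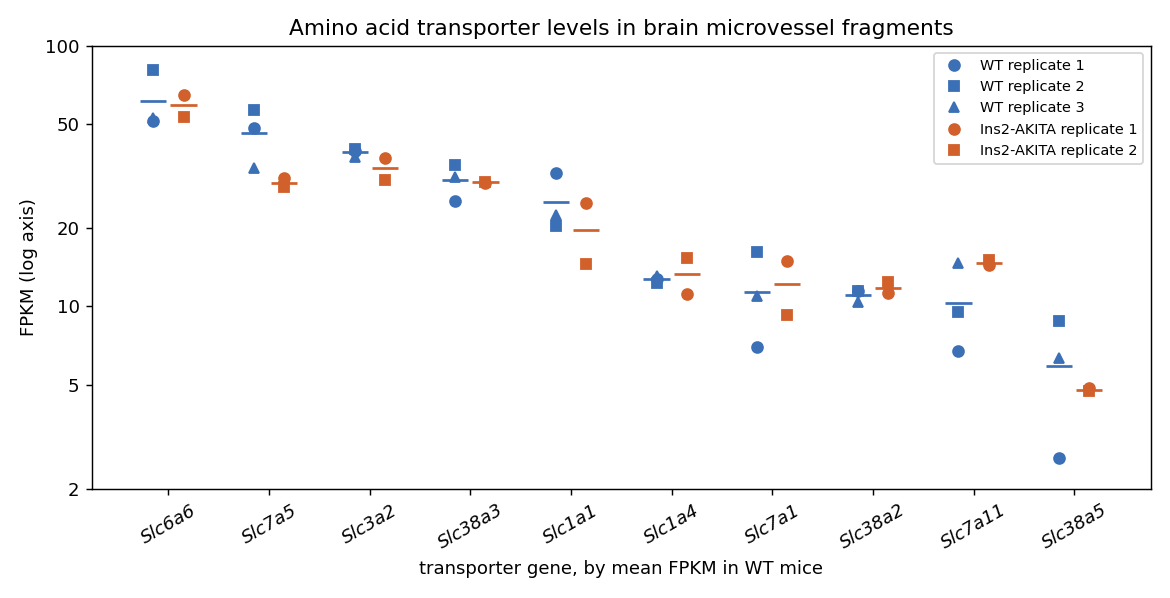
FPKM (log axis) of the 10 amino acid transporter genes in each mouse, ordered by the mean in WT mice; symbols mark single mice and horizontal lines the mean of each genotype. Both Ins2-AKITA mice lie below all WT mice for *Slc7a5* and *Slc3a2*, as for 10.3% of all genes tested, and the genotypes overlap for the other 8 genes.

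How precisely each level is known depends on depth. The deposited files list no counts, but among genes with 1 transcript 97.2% to 97.8% of the low FPKM values were a whole number of fragments (within 0.05), once a fixed offset of 225 to 235 bases had been taken off the exon length. The depth estimated in this way was between 1133500 and 1329000 fragments in 4 mice and 2871500 in WT replicate 3. About 358 to 902 fragments per mouse then lay behind *Slc6a6* and 47 or more behind each of the other genes except *Slc38a5*, which had 6 to 36. The rank correlation between mice over protein-coding genes was 0.888 to 0.947, highest between WT replicate 3 and Ins2-AKITA replicate 2.

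The comparison of WT and Ins2-AKITA mice asks whether long hyperglycemia goes along with other transporter levels in brain vessels. None of the 10 genes passed an adjusted p of 0.05 in limma, fitted on log2(FPKM + 1) of all 16286 genes, and none had an unadjusted limma p under 0.05. Without WT replicate 3 the unadjusted limma p was under 0.05 for 2 of them, *Slc7a5* (0.0113) and *Slc7a11* (0.0353), and it was so for *Slc7a5* with astrocyte (0.0374) or nuclear protein-coding scaling (0.0479) and for *Slc7a11* with TPM (0.0457). Without WT replicate 3, 490 of 16376 tested genes were higher and 936 lower at this unadjusted threshold. Of 16286 genes, astrocyte scaling gave 33 higher and 1084 lower, nuclear protein-coding scaling 197 and 574, and TPM 1808 and 105. With all mice and FPKM as deposited, limma called 0 genes higher (0%) and 4 lower (0.0246%) in Ins2-AKITA mice. In that fit 4.46% of all genes tested had an unadjusted limma p under 0.05 (1.53% higher and 2.93% lower). The log2 fold changes of the 10 genes had a median of -0.028, with 4 above and 6 below 0, beside a median of -0.035 over all genes tested, 53.5% of which were below 0. Scaling every mouse to the summed FPKM of all genes (TPM) put all 10 genes above 0, but it also moved the median of all genes to 1.07. Small and ribosomal RNA genes took 96.7%, 96.6% and 58.0% of that sum in WT replicates 1, 2 and 3, against 89.6% and 40.6% in Ins2-AKITA replicates 1 and 2. Nuclear protein-coding genes took 2.9%, 3.0% and 10.3% against 9.1% and 25.5%. In this latter share WT replicate 3 stood with the Ins2-AKITA mice, as it did for *Slc7a5* and *Slc7a11*. Its part in their differences was not tested. Both Ins2-AKITA values lay below all WT values for *Slc7a5* and *Slc3a2*, 2 of 10 genes, against 10.3% of all genes tested, and above all WT values for 0 of 10, against 9.24%. With 3 against 2 mice an exact permutation test cannot give a p below 0.1.

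The 2 genes of the list without overlap were the pair that forms LAT1. Of all genes tested, 10.3% lay below and 9.24% above without overlap. *Slc7a5* (ENSMUSG00000040010, NCBIM37 chromosome 8 from 124405052 to 124431594, minus strand), the light chain that carries the amino acids, was measured at 48.4, 56.9 and 34.0 FPKM in the WT mice, listed throughout in the order of their replicate numbers, against 31.0 and 28.8 in the Ins2-AKITA mice. WT replicate 3 stood nearer to the Ins2-AKITA mice than to the other WT mice. The mean was 46.4 ± 11.5 (SD, n = 3) for WT and, 1.55-fold lower, 29.9 ± 1.53 (SD, n = 2) for Ins2-AKITA mice. The log2 fold change was -0.59 (standard error 0.26, 95% interval -1.21 to 0.033, limma p = 0.0597 before adjustment and 0.90 after, exact permutation p = 0.2). It lay between -1.10 and -0.19 under the scalings other than TPM, where it was 1.00 and thus 0.067 below the shifted median of all genes.

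*Slc3a2* (ENSMUSG00000010095, chromosome 19 from 8781372 to 8797859, minus strand), the heavy chain that brings the dimer to the membrane, had 39.6, 40.3 and 37.5 FPKM in the WT mice against 37.1 and 30.7 in the Ins2-AKITA mice. Ins2-AKITA replicate 1 missed the lowest WT mouse by less than the spread of the WT mice. Its mean was 39.1 ± 1.47 (SD, n = 3) for WT and 33.9 ± 4.52 (SD, n = 2) for Ins2-AKITA mice, with a log2 fold change of -0.21 (standard error 0.19, 95% interval -0.65 to 0.24, limma adjusted p = 0.90, exact permutation p = 0.1, the smallest it can be), which was -0.72 with astrocyte scaling but turned to 0.19 with endothelial scaling and to 1.33 with TPM. The heavy chain was the more even of the 2, with 1.31-fold between its lowest and highest mouse against 1.97-fold for *Slc7a5*.

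Because both chains were measured in the same library, their ratio does not depend on scaling between mice. *Slc7a5* was at 1.22, 1.41 and 0.908 times the FPKM of *Slc3a2* in the WT mice and at 0.835 and 0.938 times in the Ins2-AKITA mice. The WT mice enclosed Ins2-AKITA replicate 2. The log2 ratio on the log2(FPKM + 1) scale differed by -0.38 between Ins2-AKITA and WT mice (exact permutation p = 0.3), a difference close to the WT standard deviation of 0.32.

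*Slc7a1* (ENSMUSG00000041313, chromosome 5 from 149138986 to 149211480), the carrier of arginine and lysine, varied more within the genotypes than between them. Its FPKM was 7.02, 16.2 and 11.0 in the WT mice against 15.0 and 9.31 in the Ins2-AKITA mice, so that the lowest and the highest mouse were both WT. The log2 fold change was 0.12 (standard error 0.39, 95% interval -0.83 to 1.07, limma adjusted p = 0.97), and it was -0.16 without WT replicate 1, -0.20 without Ins2-AKITA replicate 1, 0.44 without Ins2-AKITA replicate 2, -0.37 with astrocyte scaling, 0.49 with endothelial scaling and 1.24 with TPM. *Slc7a1* was at 0.145, 0.285 and 0.324 times the FPKM of *Slc7a5* in WT mice and at 0.485 and 0.323 times in Ins2-AKITA mice, a difference of 0.71 in the log2 ratio (exact permutation p = 0.2).

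The 3 sodium-coupled carriers of the SLC38 family had overlapping genotypes. *Slc38a2* (ENSMUSG00000022462, chromosome 15 from 96517825 to 96530129), known as an amino acid starvation responsive carrier of system A, had 11.5, 11.5 and 10.4 FPKM in the WT mice against 11.3 and 12.4 in the Ins2-AKITA mice. This was the most even gene of the list, and its 95% interval for the log2 fold change ran from -0.45 to 0.61. *Slc38a3* (ENSMUSG00000010064, chromosome 9 from 107552970 to 107569705), the glutamine carrier of system N, had 25.5, 35.0 and 31.5 FPKM in the WT mice against 29.9 and 30.1 in the Ins2-AKITA mice, and its interval ran from -0.53 to 0.49. Both Ins2-AKITA mice lay inside the WT range.

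*Slc38a5* (ENSMUSG00000031170, chromosome X from 7848259 to 7857305), a second system N carrier, had 2.61, 8.76 and 6.32 FPKM in the WT mice against 4.86 and 4.74 in the Ins2-AKITA mice. The low value of WT replicate 1 rests on an estimated 6 fragments, an approximation since this gene has 4 annotated transcripts. The 95% Poisson interval for that estimate, which covers counting error only, was 0.957 to 5.68 FPKM. The log2 fold change was -0.13 (standard error 0.47, 95% interval -1.27 to 1.00, limma adjusted p = 0.97), so that a 2-fold lower level lay within the interval and a 2-fold higher level at its upper end. It was -0.54 without WT replicate 1 and 0.17 without WT replicate 2, -0.57 with astrocyte and 0.21 with endothelial scaling, and 0.75 with TPM. *Slc38a3* was at 9.78, 4.0 and 4.98 times the FPKM of *Slc38a5* in WT mice and at 6.15 and 6.35 times in Ins2-AKITA mice (difference of the log2 ratio 0.11, exact permutation p = 0.8). The 2 Ins2-AKITA mice were alike in this ratio, and the WT mice enclosed them.

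The taurine carrier *Slc6a6* (ENSMUSG00000030096, chromosome 6 from 91634061 to 91709057) was the best measured gene of the list. Its FPKM was 51.3, 80.8 and 53.0 in the WT mice against 65.1 and 53.2 in the Ins2-AKITA mice, with WT replicate 2 above the rest. The log2 fold change was -0.035 (standard error 0.26, 95% interval -0.66 to 0.59, limma adjusted p = 0.99), with -0.56 under astrocyte scaling, 0.36 under endothelial scaling and 1.56 under TPM.

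*Slc7a11* (ENSMUSG00000027737, chromosome 3 from 50168858 to 50247535), whose exchanger imports cystine for glutathione synthesis, had the highest log2 fold change of the 10 genes. Its FPKM was 6.75, 9.51 and 14.7 in the WT mice against 14.4 and 15.1 in the Ins2-AKITA mice. WT replicate 3 lay between the Ins2-AKITA mice, and the other WT mice were lower. WT mice averaged 10.3 ± 4.01 (SD, n = 3) and Ins2-AKITA mice 14.7 ± 0.512 (SD, n = 2), and the log2 fold change was 0.54 (standard error 0.34, 95% interval -0.28 to 1.35, limma p = 0.16 before adjustment and 0.90 after, exact permutation p = 0.3). It was 0.80 without WT replicate 3, 0.30 without WT replicate 1, 0.052 with astrocyte scaling, 0.91 with endothelial scaling and 1.55 with TPM.

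*Slc1a1* (ENSMUSG00000024935, chromosome 19 from 28909539 to 28988450), the glutamate and cysteine carrier, had 32.6, 20.3 and 22.5 FPKM in the WT mice against 25.0 and 14.5 in the Ins2-AKITA mice. WT replicate 1 was the highest and Ins2-AKITA replicate 2 the lowest mouse. The log2 fold change was -0.35 (standard error 0.32, 95% interval -1.13 to 0.42, limma adjusted p = 0.90), with -0.73 without Ins2-AKITA replicate 1 and 0.022 without Ins2-AKITA replicate 2. Scaling moved it to -0.86 (astrocyte markers), 0.029 (endothelial markers) and 1.09 (TPM). *Slc1a4* (ENSMUSG00000020142, chromosome 11 from 20202183 to 20232716), the exchanger of small neutral amino acids, had 12.7, 12.3 and 13.1 FPKM in the WT mice against 11.2 and 15.4 in the Ins2-AKITA mice. The Ins2-AKITA mice stood on either side of the tight WT range (SD 0.417). *Slc7a5* overlaps 1 annotated gene and *Slc1a1* overlaps 2, all on the opposite strand, and how strand entered the counting is not given in the sources used here.

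Levels of cell type markers moved between the same mice, and in bulk fragments fewer cells of a type and less RNA per cell cannot be told apart. All 10 endothelial markers were above 0 in each mouse, *Pecam1* and *Cldn5* among them. Their summed FPKM was 571, 761 and 442 in the WT mice against 491 and 368 in the Ins2-AKITA mice, and 9 of the 10 had a log2 fold change below 0 (median -0.44). The 7 astrocyte markers summed to 1090, 1020 and 1450 in the WT mice against 1410 and 1740 in the Ins2-AKITA mice, and all 7 had a log2 fold change above 0 (median 0.43). Both Ins2-AKITA mice lay below all WT mice for 4 of 4 smooth muscle markers, against 10.3% of all genes tested. WT replicate 3 was on the side of the Ins2-AKITA mice for the endothelial and astrocyte sums but not for smooth muscle, which summed to 212, 249 and 227 in the WT mice against 166 and 129 in the Ins2-AKITA mice. None of these markers passed an adjusted p of 0.05 in limma. Their part in the transporter differences was not tested. The ratios to markers within a mouse that follow are a description and no test of it.

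Summed neuron markers lay between 770 and 934 FPKM, oligodendrocyte markers between 1930 and 2610, microglia markers between 73.1 and 123, pericyte markers between 180 and 252, fibroblast markers between 28.7 and 36.2 and choroid plexus markers between 689 and 2050 in the 5 mice. Markers of neurons, oligodendrocytes and choroid plexus were thus present next to those of the vessel wall, and their part in the transporter levels was not tested. The 3 tested erythroid markers summed to 44.9, 51.8 and 26.5 FPKM in the WT mice against 27.5 and 19.8 in the Ins2-AKITA mice, and 3 of 3 had a log2 fold change below 0 (median -0.95, limma adjusted p of 0.90 or more).

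**Figure D2:**
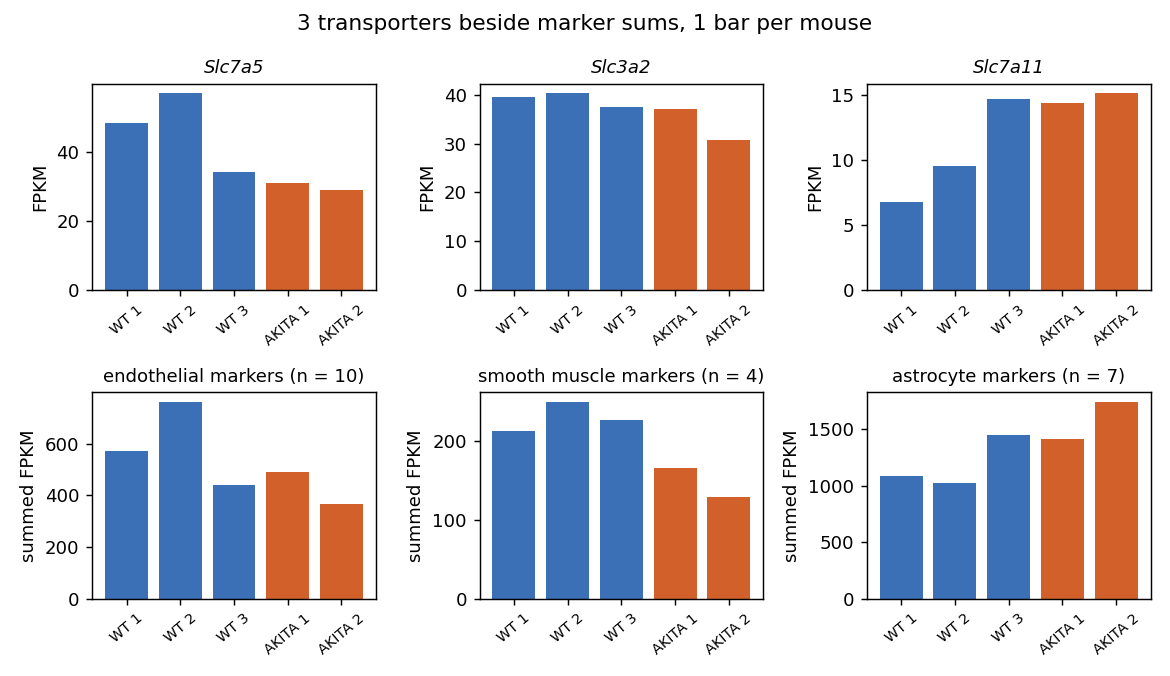
FPKM of *Slc7a5*, *Slc3a2* and *Slc7a11* (upper panels) and summed FPKM of endothelial, smooth muscle and astrocyte markers (lower panels), 1 bar per mouse, WT in blue and Ins2-AKITA in orange. *Slc7a5* and the endothelial sum are highest in WT replicate 2, and *Slc7a11* and the astrocyte sum are lowest in WT replicates 1 and 2.

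Set against the geometric mean of the 10 endothelial markers in the same mouse, *Slc7a5* was at 121%, 96.2% and 92.9% in the WT mice against 80.7% and 99.0% in the Ins2-AKITA mice. The WT range then held Ins2-AKITA replicate 2, the spread over the 5 mice was 1.49-fold against 1.97-fold for FPKM, and the genotypes differed by -0.20 on the log2 scale (exact permutation p = 0.6). Against the astrocyte markers its spread was 3.72-fold, both Ins2-AKITA mice were below all WT mice, and the difference was -1.13 (exact permutation p = 0.2). *Slc7a11* went the other way, with a spread of 3.22-fold against endothelial and 1.53-fold against astrocyte markers, compared with 2.24-fold for FPKM. Against the endothelial markers the genotypes overlapped and differed by 0.99 on the log2 scale (exact permutation p = 0.3). *Slc7a11* was at 7.25%, 11.1% and 10.5% of the astrocyte markers in the WT mice against 10.4% and 9.34% in the Ins2-AKITA mice (difference of log2 values 0.058, exact permutation p = 1.0). The endothelial ratio also narrowed the spread of *Slc7a1*, *Slc38a5* and *Slc6a6*. It widened that of *Slc3a2* (1.31-fold to 1.55-fold), *Slc38a2* (1.19-fold to 2.18-fold), *Slc1a4* (1.37-fold to 2.54-fold), *Slc38a3* and *Slc1a1*. The astrocyte ratio narrowed the spread of *Slc7a11* only. What changes these spreads was not tested.

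Relative to the endothelial markers, both Ins2-AKITA mice lay above all WT mice for 3 of the 10 genes, *Slc6a6*, *Slc38a2* and *Slc7a1*, against 17.7% of all genes tested, and below them for 0, against 2.87%. Relative to the astrocyte markers they lay below all WT mice for 3 of 10, *Slc7a5*, *Slc3a2* and *Slc38a3*, against 27.4% of all genes tested, and above them for 0, against 0.921%. *Slc6a6* was at 128%, 137% and 145% of the endothelial markers in the WT mice against 169% and 183% in the Ins2-AKITA mice (exact permutation p = 0.1, the smallest it can be). Its FPKM overlapped between the genotypes, and so did its level against the astrocyte markers. The glucose transporter *Slc2a1* was at 273, 167 and 137 FPKM in the WT mice against 143 and 105 in the Ins2-AKITA mice, above each of the 10 amino acid transporters in every mouse. In the whole fit, scaling to endothelial markers moved the all-gene median of the log2 fold changes to 0.32 and scaling to astrocyte markers to -0.50. Relative to these medians *Slc7a5* was at -0.51 and -0.61, beside -0.55 for FPKM as deposited, and *Slc7a11* at 0.59 and 0.55, beside 0.57. Such a scaling shifts the log2 fold changes of all genes by nearly the same amount. Subtracting the median removes that shift, so this likeness follows from the arithmetic and was no test of cell composition. With either scaling none of the 10 genes passed an adjusted p of 0.05 in limma.

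**Figure D3:**
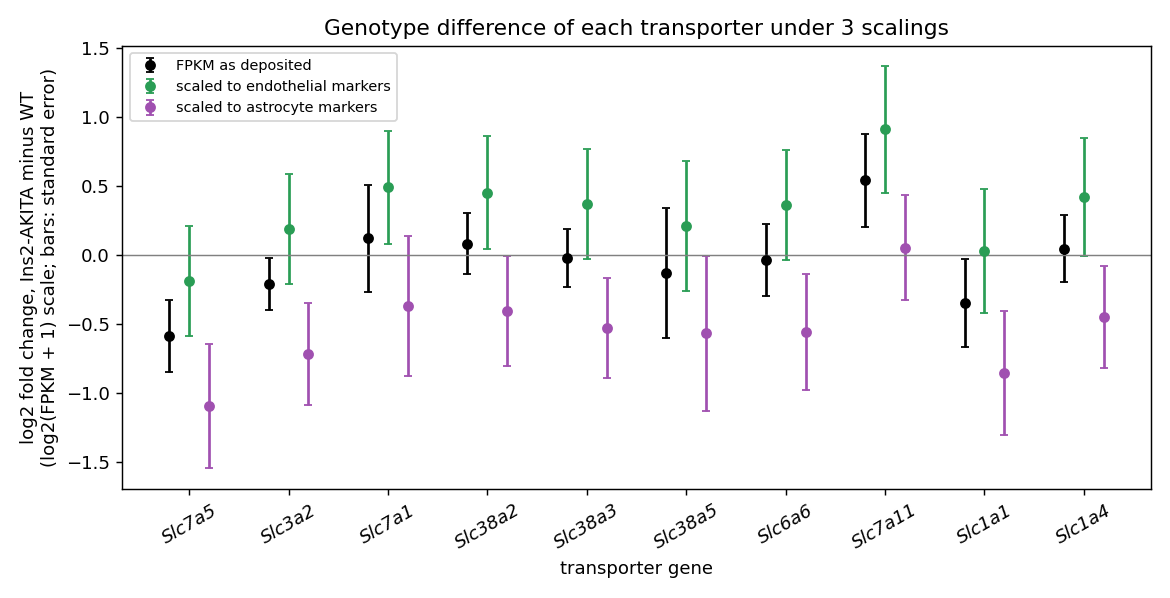
Log2 fold change (Ins2-AKITA minus WT, log2(FPKM + 1) scale) of the 10 transporter genes with its limma standard error, for FPKM as deposited (black), after scaling each mouse to endothelial markers (green) and to astrocyte markers (purple). *Slc7a5* is below 0 and *Slc7a11* above 0 in these 3 settings, while the other 8 genes lie on either side of 0 depending on the scaling.

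Among 41 further amino acid transporters, 28 reached an average of 1 FPKM and 3 were at 0 in each mouse. Of the 28, 0 were called by limma and 0 had an unadjusted limma p under 0.05, against 4.46% of all genes tested. The log2 fold change was above 0 for 11 and below 0 for 17, with a median of -0.093. Values here and in the lists that follow are for FPKM as deposited. The highest level belonged to *Slc1a2*, the main glutamate carrier of astrocytes, with 1010, 1450 and 1510 FPKM in the WT mice against 1900 and 2110 in the Ins2-AKITA mice. It also had the highest log2 fold change and the smallest p of the list (0.62, standard error 0.29, limma adjusted p = 0.90). *Slc1a3*, the other astrocyte glutamate carrier, followed with 177, 219 and 237 FPKM in the WT mice against 250 and 337 in the Ins2-AKITA mice. Both Ins2-AKITA mice lay above all WT mice for 3 of the 28 genes, *Slc1a2* and *Slc1a3* among them, against 9.24% of all genes tested. They lay below all WT mice for 2 of the 28, against 10.3%. Of the 7 astrocyte markers, *Aldh1l1* and *Aldoc* were above without overlap, whereas the other 5 overlapped. *Slc6a17*, a neutral amino acid carrier of synaptic vesicles, had 108, 182 and 81.3 FPKM in the WT mice against 136 and 76.7 in the Ins2-AKITA mice. At the other end stood *Slc6a20b* with -0.93 (standard error 0.67) and 5.22, 1.45 and 0.782 FPKM in the WT mice against 0.898 and 0.315 in the Ins2-AKITA mice.

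The amino acid response list, with the targets and upstream kinases of ATF4, showed no common direction. Of its 20 tested genes 8 were above and 12 below 0 (median -0.10), and 0 passed the adjusted threshold in limma. An unadjusted limma p under 0.05 was found for 1 gene in each direction, against 1.53% higher and 2.93% lower of all genes tested. *Atf4* itself had 40.4, 35.0 and 35.0 FPKM in the WT mice against 33.3 and 40.1 in the Ins2-AKITA mice. *Ddit3*, the stress factor CHOP, had the smallest p, with 43.5, 38.5 and 47.8 FPKM in the WT mice against 27.0 and 26.8 in the Ins2-AKITA mice (-0.66 ± 0.19 as log2 fold change and standard error, limma adjusted p = 0.90). *Nupr1*, a stress-induced chromatin protein, had the highest log2 fold change, with 9.08, 11.3 and 13.4 FPKM in the WT mice against 17.6 and 23.3 in the Ins2-AKITA mice (0.81, standard error 0.26, limma adjusted p = 0.90). The Ins2-AKITA mice did not overlap the WT mice for either gene, below them for *Ddit3* and above them for *Nupr1* on the scale as deposited. Of the 20 genes 3 lay above and 3 below without overlap, against 9.24% and 10.3% of all genes tested. The lowest value was -0.93 for *Atf3*, a low gene with 1.95, 1.29 and 5.78 FPKM in the WT mice against 0.504 and 1.33 in the Ins2-AKITA mice.

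Genes through which amino acids reach mTORC1, the growth kinase that reads leucine and arginine supply, were likewise split. Of 23 tested genes 10 were above and 13 below 0 (median -0.057), with 0 called by limma. At an unadjusted limma p under 0.05 there was 1 gene in each direction, against 1.53% higher and 2.93% lower of all genes tested. Without overlap, 1 of the 23 lay above and 4 below, against 9.24% and 10.3%. *Rragd*, a Rag GTPase that recruits mTORC1 to the lysosome, had 13.8, 17.5 and 19.6 FPKM in the WT mice against 24.5 and 34.7 in the Ins2-AKITA mice (0.76 ± 0.26 as log2 fold change and standard error, limma adjusted p = 0.90). *Wdr24*, a subunit of the GATOR2 complex, was lowest at -0.65 (standard error 0.39). Of 12 tested genes of glutathione and taurine synthesis, which use the products of xCT and of cysteine uptake, 5 were above and 7 below 0 (median -0.17), with 0 called by limma and 1 at an unadjusted p under 0.05. That gene was *Ggt7*, of the gamma-glutamyltransferase family, with 53.5, 28.4 and 43.0 FPKM in the WT mice against 22.1 and 19.9 in the Ins2-AKITA mice (-0.91 ± 0.29 as log2 fold change and standard error, limma adjusted p = 0.90). *Cbs*, which makes cystathionine from homocysteine, was highest at 0.57 (standard error 0.28).

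**Figure D4:**
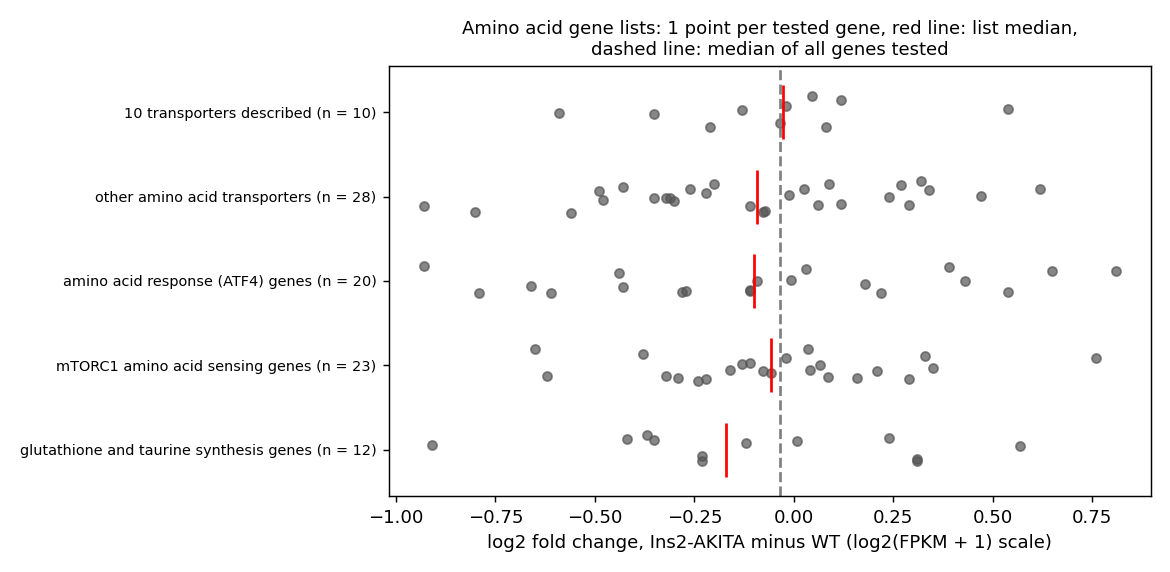
Log2 fold changes (Ins2-AKITA minus WT, log2(FPKM + 1) scale) of the tested genes of the 10 transporters and of 4 further amino acid gene lists, 1 point per gene, with the list median in red and the median of all genes tested as a dashed line. All 5 list medians lie between -0.17 and -0.028, and no gene passed an adjusted p of 0.05 in limma.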

How the data were processed

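Brain microvessel RNA of 3 WT and 2 Ins2-AKITA mice was analysed, 1 library each. The authors depleted ribosomal RNA, made stranded total RNA libraries, mapped reads to NCBIM37 with TopHat2 2.0.4, removed duplicates with Picard 1.92 and tested with Cufflinks 2.2.1. The deposited values are FPKM per Ensembl gene and mouse. The program behind single-mouse values is not given in the sources used here. Removing duplicates can lower high values of short genes.

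Of 37982 identifiers 37197 matched GENCODE vM1 (NCBIM37), and rows sharing a symbol were summed. Genes that averaged 1 FPKM or more entered limma (version 3.58.1, R 4.3.3, trend, two-sided, Benjamini-Hochberg over all 16286 genes, threshold 0.05) on log2(FPKM + 1), with genotype as the factor. Fold changes on this scale understate those of low genes. The files hold FPKM and no counts, so no count test was run. Single values and ratios were compared with two-sided exact permutation tests over the 10 splits of the mice (Python 3.11.15). Which WT and Ins2-AKITA mice shared a litter is not given in the sources used here.

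Alternatives used a pseudocount of 0.1, a filter at 5 or none, scaling to all genes (TPM), to nuclear protein-coding genes, by median ratios or to endothelial markers, a constant variance prior, a replicate block, the highest row per symbol and each mouse left out. Scaling to astrocyte markers was added after the values had been seen. The transporters, lists and markers were chosen with earlier results of these data known. Named genes are the 10 transporters, per list the lowest and highest fold change and smallest p, and the 3 most abundant further transporters. *Atf4* and single markers were named in addition, after their values had been seen. The limma step was also run on simulated data with larger changes than those of the 10 transporters with FPKM as deposited. That run therefore does not show how well changes of their size would be found. Promoters come from RefSeq (GRCm38.p6), and their coordinates are not those of NCBIM37.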

Additional observations from a re-analysis of the deposited data

How the results depend on the processing

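None of the 10 transporters passed an adjusted p of 0.05 in limma under any setting run, and the smallest adjusted p of a transporter lay between 0.27 (TPM) and 1.0. Of their fold changes under single alternatives 135 kept their direction and 25 reversed. The filter, the variance prior and the choice of row cannot change the fold change of these genes, so those settings kept the direction by construction. With TPM, limma called 58 genes higher and 30 lower, the median of the 10 was 1.28, and *Slc7a5* (1.00), *Slc3a2* (1.33), *Slc38a3* (1.45), *Slc38a5* (0.75), *Slc6a6* (1.56) and *Slc1a1* (1.09) reversed. Endothelial scaling gave 1 gene higher and 7 lower and a median of 0.37, and reversed *Slc3a2* (0.19), *Slc38a3* (0.37), *Slc38a5* (0.21), *Slc6a6* (0.36) and *Slc1a1* (0.029). Astrocyte scaling, chosen after seeing the data, gave 2 lower and a median of -0.55, and reversed *Slc7a1* (-0.37), *Slc38a2* (-0.41) and *Slc1a4* (-0.45). Without a filter and with a filter at 5 limma called 2 genes lower, and with a constant prior 1 higher and 2 lower. Median-ratio scaling put *Slc38a3* at 0.0065. With a replicate block *Slc38a3* was 0.0048, *Slc7a5* -0.79 and *Slc7a11* 0.80, and 5 genes were called lower. The latter 2 transporters had an unadjusted limma p under 0.05 (0.0268 and 0.0463), as had 440 of 16286 genes higher and 809 lower. Replicate 3 exists in WT only, so this block takes that mouse out and repeats the fold changes found without WT replicate 3. Whether the numbers pair the mice is not known. Deviations of same-numbered mice from their group means correlated at 0.051 and -0.034 across genes. This cannot decide it, since the deviations of 2 Ins2-AKITA mice are exact mirror images of each other. The causes were not tested.

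Leaving out 1 mouse at a time, limma called 0 to 10 genes higher (2 without WT replicate 1, 5 and 10 without Ins2-AKITA replicates 1 and 2) and 2 to 10 lower (2 without Ins2-AKITA replicate 2, 10 without WT replicate 3), and the median of the transporters was -0.16 to 0.092. *Slc7a5* ranged from -0.79 to -0.43, *Slc3a2* from -0.34 to -0.073, *Slc7a11* from 0.30 to 0.80 and *Slc38a2* from 0.02 to 0.14. Ranges crossed 0 for *Slc7a1* (-0.20 to 0.44), *Slc38a3* (-0.14 to 0.078), *Slc38a5* (-0.54 to 0.17), *Slc6a6* (-0.18 to 0.17), *Slc1a1* (-0.73 to 0.022) and *Slc1a4* (-0.17 to 0.26). Without WT replicate 3 *Slc7a5* was at -0.79 and *Slc7a11* at 0.80, the same fold changes as with the replicate block, whereas the limma p-values of these 2 fits differed. The log2 ratio differed by -0.56 to -0.25 for *Slc7a5* to *Slc3a2*, 0.38 to 0.97 for *Slc7a1* to *Slc7a5* and -0.096 to 0.40 for *Slc38a3* to *Slc38a5*, below 0 without WT replicate 2. With 1 Ins2-AKITA mouse left, its spread was taken from the WT mice. Depth limits *Slc38a5* most, with an estimated 6 to 36 fragments per mouse.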
